A study of Mus musculus with 9 samples.

Results

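The organic anion transporters of the proximal tubule were followed as 9 genes, Slco1a1, Slco1a6, Slco4c1, Slc22a6, Slc22a7, Slc22a8, Slc22a12, Slc22a13 and Slc22a19, among the 22180 genes measured in mouse kidney. The 9 symbols were given in advance with earlier results of these arrays in view, and the probe set of each was chosen by the highest mean over the 9 arrays. Each of the 9 symbols had a single probe set, so that choice left nothing out. A p-value given for one of them is therefore not independent evidence about these transporters as a group.

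The arrays came from 3 groups of male mice with 3 arrays in each and 1 mouse per array. The first group was diabetic db/db mice given irbesartan by mouth for 12 weeks, called treated mice below. The second was db/db mice given vehicle for 12 weeks, and the third was db/m mice, also given vehicle for 12 weeks according to the labels. Db/db mice lack the signalling form of the leptin receptor and become obese and diabetic, whereas db/m mice carry 1 working copy and served as nondiabetic controls. Irbesartan is a drug against the type 1 receptor of angiotensin II. No irbesartan-treated db/m mice were among the samples. The labels give kidney, with an age of 10 weeks at the start for both db/db groups and no age for db/m mice. The study's methods describe renal cortex, younger mice and another Affymetrix array than the one the labels and probe set numbers show. Values are log2 signals after RMA (robust multi-array averaging, which corrects background and makes the arrays' distributions equal), so a difference of 1 is a doubling. Because probes differ in brightness, a level was compared between mice for the same gene and not between genes.

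Proximal tubule cells take organic anions such as drugs, conjugated toxins, hormones and metabolites from blood across the basolateral membrane and pass them into urine across the brush border. The Slc22a family includes exchangers that trade an outside anion for a dicarboxylate held in the cell, and its urate members move urate at the brush border. The Slco family carries larger amphipathic anions such as bile acids, steroid conjugates and thyroid hormones. Several of these carriers are known to be set by sex hormones in rodent kidney, and Slco1a1 is known from mouse and rat as a carrier that is far more abundant in males.

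Promoter windows of RefSeq on build GRCm38.p6 matched 8 of the 9 genes, and Slc22a7 is named only. Each window runs from 250 bases before to 50 bases after the start site, 5′ to 3′ along the gene. The windows below are shown because Slco1a1 and Slco1a6 are close relatives on chromosome 6 with unlike values in the diabetic mice. Slc22a19 and its neighbour Slc22a26 on chromosome 19, a gene of the same family, were both lower in the diabetic mice. Capitals mark 3 motifs searched on both strands, TTCNNNGAA (a STAT palindrome), AGAACA (the core letters of steroid receptor sites, TGTTCT on the opposite strand) and AGGTCA (the core letters of other nuclear receptor sites, TGACCT on the opposite strand).
Slco1a1 (chr6:141946913-141947212, minus strand): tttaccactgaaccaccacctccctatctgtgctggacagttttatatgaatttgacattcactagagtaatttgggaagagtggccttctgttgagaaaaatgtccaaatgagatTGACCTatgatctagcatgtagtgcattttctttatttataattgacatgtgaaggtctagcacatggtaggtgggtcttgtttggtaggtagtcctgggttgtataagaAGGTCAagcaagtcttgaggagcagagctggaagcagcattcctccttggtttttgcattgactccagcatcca
Slco1a6 (chr6:142186100-142186399, minus strand): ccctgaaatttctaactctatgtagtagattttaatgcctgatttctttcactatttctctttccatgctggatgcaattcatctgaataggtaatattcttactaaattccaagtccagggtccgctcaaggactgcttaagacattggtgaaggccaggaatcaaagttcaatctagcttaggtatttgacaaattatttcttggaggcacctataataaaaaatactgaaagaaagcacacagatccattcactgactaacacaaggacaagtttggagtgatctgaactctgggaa
Slc22a19 (chr19:7711261-7711560, minus strand): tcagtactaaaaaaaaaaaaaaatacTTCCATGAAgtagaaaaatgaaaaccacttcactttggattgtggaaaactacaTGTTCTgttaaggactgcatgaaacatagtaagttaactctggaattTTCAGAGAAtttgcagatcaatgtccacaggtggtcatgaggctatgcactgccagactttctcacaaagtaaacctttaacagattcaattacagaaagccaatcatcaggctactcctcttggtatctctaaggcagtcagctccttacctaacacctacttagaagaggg
Slc22a26 (chr19:7802618-7802917, minus strand): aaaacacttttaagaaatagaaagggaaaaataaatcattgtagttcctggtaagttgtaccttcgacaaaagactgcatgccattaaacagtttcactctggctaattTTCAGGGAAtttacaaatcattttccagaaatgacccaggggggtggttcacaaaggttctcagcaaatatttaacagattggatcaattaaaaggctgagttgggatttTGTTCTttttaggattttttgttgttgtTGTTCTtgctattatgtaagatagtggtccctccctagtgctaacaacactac

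Slc22a19 held TTCNNNGAA at 2 places, 224 and 123 bases before its start site counted to the first letter, and Slc22a26 held it 141 bases before. Of all 32851 windows, 2726 (8.3%) held it. Slc22a19 was the 1 of 8 transporters with a window that held it, and 6 of 26 other Slco and Slc22a genes (23.1%) did. Beside Slc22a26 these were Slc22a15, Slc22a16, Slco1a5, Slco1b2 and Slco2b1, none of them called. It was absent from the windows of Slc22a28 and Slc22a30, which were also lower in the diabetic mice. AGAACA was met on the opposite strand in Slc22a19, at 2 places in Slc22a26 and in Slco4c1, against 19% of all windows. Of the transporters 2 of 8 held it, and 5 of 26 other family genes (19.2%) did. Beside Slc22a26 these were Slc22a18, Slc22a22 and Slco2b1, none of them called, and Slco4a1, which rose. Slco1a1 held AGGTCA at 2 places. These lay 134 bases before the start site on the opposite strand and 24 bases before it on the gene's own strand. Of all windows, 16.3% held it, and 4 of 26 other family genes (15.4%) did. Those were Slc22a14, Slc22a27 and Slco1b2, none of them called, and Slco4a1, which rose. None of the 3 motifs was found in the windows of Slco1a6, Slc22a6, Slc22a8, Slc22a12 or Slc22a13. The windows of Slco1a1 and Slco1a6 were identical at 52.3% of their 300 bases after alignment, and those of Slc22a19 and Slc22a26 at 60.0%. The window of Slc22a19 was more like those of Slc22a30 (65.7%) and Slc22a28 (64.3%). Among the chromosome 19 windows the lowest pair, Slc22a26 and Slc22a8, gave 48.3%. Windows of unrelated genes were not aligned. The matches do not overlap each other, and they describe letters only.

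Correlations between arrays lay between 0.988 and 0.997. Of 14 proximal tubule marker genes measured, among them the endocytic receptors Lrp2 and Cubn and the phosphate carrier Slc34a1, 0 were called in db/db against db/m mice by limma, with 3 at an unadjusted p under 0.05. The methods' one-way model fitted over 3 groups also called 0 of them, and 287 of all genes. In treated against db/m mice, where limma called 1.96% of all genes lower, it called 1 of the 14 markers lower. There 5 of these markers had an unadjusted p under 0.05. Their mean log2 value per array was 11.20 to 11.24 in db/db + irbesartan mice, 11.16 to 11.26 in db/db mice and 11.17 to 11.28 in db/m mice. Proximal tubule markers were thus bright on every array. Db/db replicate 3 stood apart from its group, as 4 neutrophil markers averaged 5.92 on it, against 2.69 and 3.03 on the other db/db arrays. They averaged 2.50 to 2.82 on the irbesartan arrays and 2.68 to 2.73 on the db/m arrays. On irbesartan replicate 2, 5 macrophage markers averaged 6.35, against 5.39 and 5.08 on the other irbesartan arrays. There 4 fibroblast and mesangial markers averaged 7.06, against 6.46 and 6.20. The part of these cells in the irbesartan values was not tested. Results that lean on db/db replicate 3 are given with and without it, and the part of neutrophils in them was not tested. In whole tissue, fewer cells of a type and less RNA per cell cannot be told apart.

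In db/db against db/m kidneys, 3 of the 9 transporters were called lower (Slco1a1, Slc22a7 and Slc22a19) and 0 higher, where a call by limma needed a log2 fold change past 0.5 with a p under 0.25 once adjusted over all genes by Benjamini and Hochberg. The background was 0.987% of the 22180 genes called lower and 1.31% called higher. The median log2 fold change of the 9 was -0.45, and that of all genes was 0.01. In db/db + irbesartan against db/db kidneys, 0 of the 9 were called in either direction by limma, and 1 had an unadjusted p under 0.05 (Slc22a13). The one-way model over 3 groups called 0 of the 9 and 71 of all genes there, and the one-way test on 6 arrays called 0 of all genes, so its 0 of the 9 carries no information. There 0.428% of all genes were called lower and 0.577% higher. In db/db + irbesartan against db/m kidneys, 5 of the 9 were called lower, the same 3 with Slco4c1 and Slc22a12, and 0 higher, against 1.96% and 1.93% of all genes. The comparisons share arrays, so their counts are not separate evidence.

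**Figure D1:**
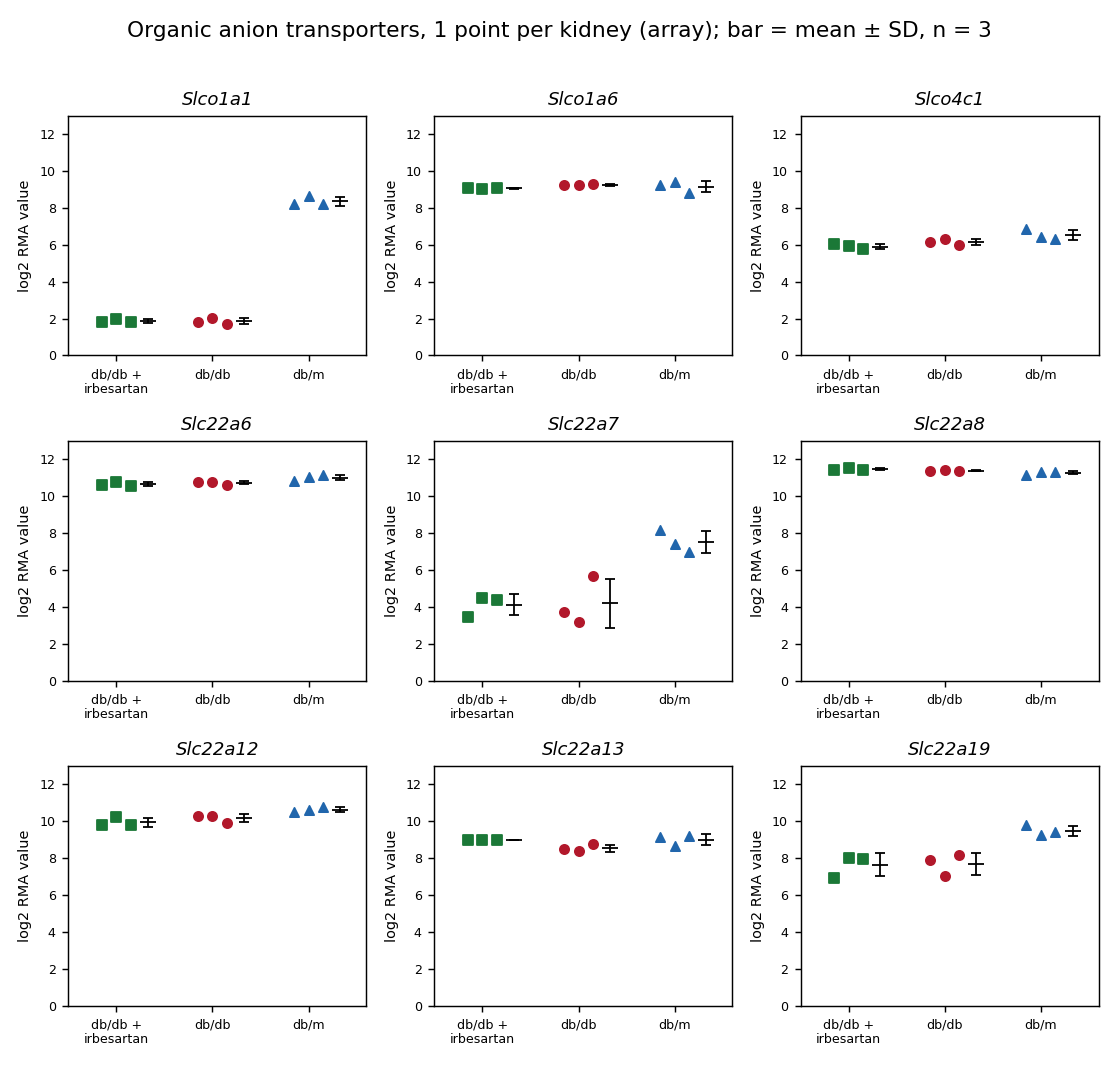
Log2 RMA value (vertical axis) of each of the 9 transporters on each array, for db/db + irbesartan, db/db and db/m mice from left to right, with 3 points per group in replicate order and the mean ± SD beside them. Slco1a1, Slc22a7 and Slc22a19 lie lower on all 6 diabetic arrays than on any db/m array, and the Slc22a8 values span only 0.34 over the 9 arrays.

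Among the brush border carriers, Slco1a1 showed by far the widest gap. Slco1a1 (Oatp1a1) lies on the apical membrane of the proximal tubule in mouse and rat and carries steroid conjugates and bile acids. Its log2 values were 1.82, 1.9999 and 1.79 in db/db + irbesartan mice, 1.81, 2.05 and 1.71 in db/db mice, and 8.23, 8.62 and 8.21 in db/m mice. No diabetic array came near a db/m array, and the gap was many times the spread within any group. In db/db against db/m mice the log2 fold change was -6.50 (SE 0.13, adjusted p = 6.2e-10), a 90.5-fold lower signal. Of all 22180 genes this was the lowest fold change. The values in both diabetic groups were below the lower quartile of their arrays, which lay at 2.15 to 2.18, so the signal was at the dim end of the array and the fold depends on the background correction there. Irbesartan-treated and untreated db/db mice differed by 0.01 (95% interval -0.28 to 0.31, adjusted p = 0.98), and treated mice were below db/m mice by a log2 fold change of -6.49 (adjusted p = 6.3e-10).

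Slco1a6, a relative of Slco1a1 on the same chromosome that is known from mouse kidney, had no such gap. Its values were 9.07, 9.03 and 9.10 in db/db + irbesartan mice, 9.22, 9.23 and 9.28 in db/db mice, and 9.21, 9.39 and 8.83 in db/m mice. The db/m mice spanned the values of both diabetic groups, and all 3 treated mice were below all 3 untreated db/db mice by a small step. Its log2 fold change was -0.18 for treated against untreated db/db mice (95% interval -0.46 to 0.11, adjusted p = 0.61) and 0.09 for db/db against db/m mice (95% interval -0.19 to 0.38, adjusted p = 0.80). It was -0.08 for treated against db/m mice (adjusted p = 0.81). The sign of the last 2 values turned when a single db/m array was left out, to -0.06 without db/m replicate 3 and to 0.04 without db/m replicate 2.

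Slc22a7 (OAT2), a carrier of cyclic nucleotides, prostaglandins and other small anions, was called lower in both diabetic groups. The values were 3.46, 4.47 and 4.38 in db/db + irbesartan mice, 3.74, 3.15 and 5.67 in db/db mice, and 8.14, 7.43 and 6.997 in db/m mice. The highest diabetic value, on db/db replicate 3, was still below the lowest db/m value. On db/db replicate 2 the value was below the array median of 3.38, and on irbesartan replicate 1 it was close to the array median of 3.44. The size of the fold therefore depends in part on the background correction of dim signals. The log2 fold change was -3.34 in db/db against db/m mice (SE 0.54, adjusted p = 0.017), a 10.1-fold lower signal, and -3.42 in treated mice against db/m mice (adjusted p = 0.0082). Without db/db replicate 3 the first became -4.08 (adjusted p = 0.0010). Treated and untreated db/db mice differed by -0.08, with a wide 95% interval of -1.28 to 1.11 (adjusted p = 0.97), and the difference was 0.66 without db/db replicate 3 (adjusted p = 0.50) and 0.24 without irbesartan replicate 1. A change of up to about a doubling in either direction with irbesartan was not detectable for this gene with 3 arrays per group.

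Slc22a19 (Oat5), which in rodents exchanges steroid sulfates and other anions for a dicarboxylate at the brush border of the late proximal tubule, was called lower as well, with a smaller fold change. It had 6.92, 8.02 and 7.97 in db/db + irbesartan mice, 7.92, 7.03 and 8.15 in db/db mice, and 9.77, 9.26 and 9.40 in db/m mice. Each diabetic group held 1 array about 1 log2 unit below the other 2, irbesartan replicate 1 and db/db replicate 2, and no diabetic value reached the db/m range. In db/db against db/m mice the difference was a log2 fold change of -1.77 (SE 0.32, adjusted p = 0.029), a 3.42-fold lower signal, and -1.84 in treated against db/m mice (adjusted p = 0.014). Treated and untreated db/db mice differed by -0.07 (95% interval -0.77 to 0.64, adjusted p = 0.96). That sign turned when db/db replicate 1 or 3 or irbesartan replicate 1 was left out, to between 0.04 and 0.29.

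The 2 main uptake carriers of the basolateral membrane, Slc22a6 (OAT1) and Slc22a8 (OAT3), bring p-aminohippurate, many drugs and uremic solutes into the cell in exchange for dicarboxylates. Slc22a6 had 10.60, 10.77 and 10.55 in db/db + irbesartan mice, 10.78, 10.75 and 10.63 in db/db mice, and 10.84, 11.04 and 11.12 in db/m mice. All 6 diabetic mice were below all 3 db/m mice, by a step close to the spread within the groups. Its log2 fold change was -0.28 in db/db against db/m mice (SE 0.11, adjusted p = 0.28) and -0.36 in treated against db/m mice (adjusted p = 0.098), and neither reached the fold change needed for a call. Treated and untreated db/db mice differed by -0.08 (95% interval -0.31 to 0.15, adjusted p = 0.80).

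Slc22a8 had 11.41, 11.51 and 11.42 in db/db + irbesartan mice, 11.36, 11.44 and 11.37 in db/db mice, and 11.17, 11.33 and 11.30 in db/m mice. The 6 diabetic mice were slightly above the 3 db/m mice, the opposite order to its neighbour Slc22a6. Its log2 fold change was 0.12 in db/db against db/m mice (95% interval -0.07 to 0.31, adjusted p = 0.60), 0.06 in treated against untreated db/db mice (95% interval -0.13 to 0.25, adjusted p = 0.83) and 0.18 in treated against db/m mice (adjusted p = 0.33). Of the 9 genes this one had the narrowest range over the 9 arrays, 0.34 log2 units, where that of Slco1a1 was 6.91.

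Slco4c1, a basolateral carrier of digoxin and thyroid hormones known from rat and human kidney, had 6.04, 5.91 and 5.77 in db/db + irbesartan mice, 6.16, 6.31 and 5.99 in db/db mice, and 6.85, 6.45 and 6.31 in db/m mice. The means were 5.90 ± 0.14 in treated mice, 6.15 ± 0.16 in db/db mice and 6.53 ± 0.28 in db/m mice (SD, n = 3 each). Treated and untreated db/db mice overlapped, as did db/db and db/m mice, and only the treated and the db/m mice were apart on every array. Between those 2 groups the log2 fold change was -0.63 (SE 0.15, adjusted p = 0.043), and it was -0.38 in db/db against db/m mice (adjusted p = 0.29) and -0.25 in treated against untreated db/db mice (adjusted p = 0.52). The call between treated and db/m mice was lost without db/m replicate 1, at a log2 fold change of -0.47 (adjusted p = 0.11). It was also lost under the methods' one-way test on 6 arrays (adjusted p = 0.29).

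Slc22a12 (URAT1) reabsorbs urate at the brush border. It had 9.78, 10.24 and 9.81 in db/db + irbesartan mice, 10.31, 10.31 and 9.92 in db/db mice, and 10.51, 10.62 and 10.76 in db/m mice. All 6 diabetic values were below the db/m values, while the treated and untreated db/db mice overlapped. The log2 fold change was -0.69 in treated against db/m mice (SE 0.15, adjusted p = 0.034), which was called. In db/db against db/m mice it was -0.45 (adjusted p = 0.22), short of the fold change for a call, and in treated against untreated db/db mice it was -0.24 (95% interval -0.57 to 0.09, adjusted p = 0.55). Without db/db replicate 2 the value in db/db against db/m mice was -0.51 (adjusted p = 0.248) and just passed both limits, and without db/db replicate 3 it was -0.32 (adjusted p = 0.46).

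Slc22a13 (OAT10), which carries nicotinate and urate at the brush border, was the only one of the 9 with an unadjusted p under 0.05 for irbesartan. It had 8.97, 8.998 and 8.97 in db/db + irbesartan mice, 8.51, 8.36 and 8.75 in db/db mice, and 9.14, 8.66 and 9.19 in db/m mice. All 3 treated mice were above all 3 untreated db/db mice and inside the range of the db/m mice. The log2 fold change was 0.43 in treated against untreated db/db mice (SE 0.15, 95% interval 0.11 to 0.75, adjusted p = 0.29), -0.45 in db/db against db/m mice (adjusted p = 0.21) and -0.02 in treated against db/m mice (adjusted p = 0.97). None of the 3 was called. Without db/db replicate 3 the first was 0.54 (adjusted p = 0.24) and the second -0.56 (adjusted p = 0.18), both past the limits, and without db/m replicate 2 the second was -0.62 (adjusted p = 0.057). The value against db/m mice was 0.06 without db/m replicate 1 and 0.08 without db/m replicate 3.

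**Figure D2:**
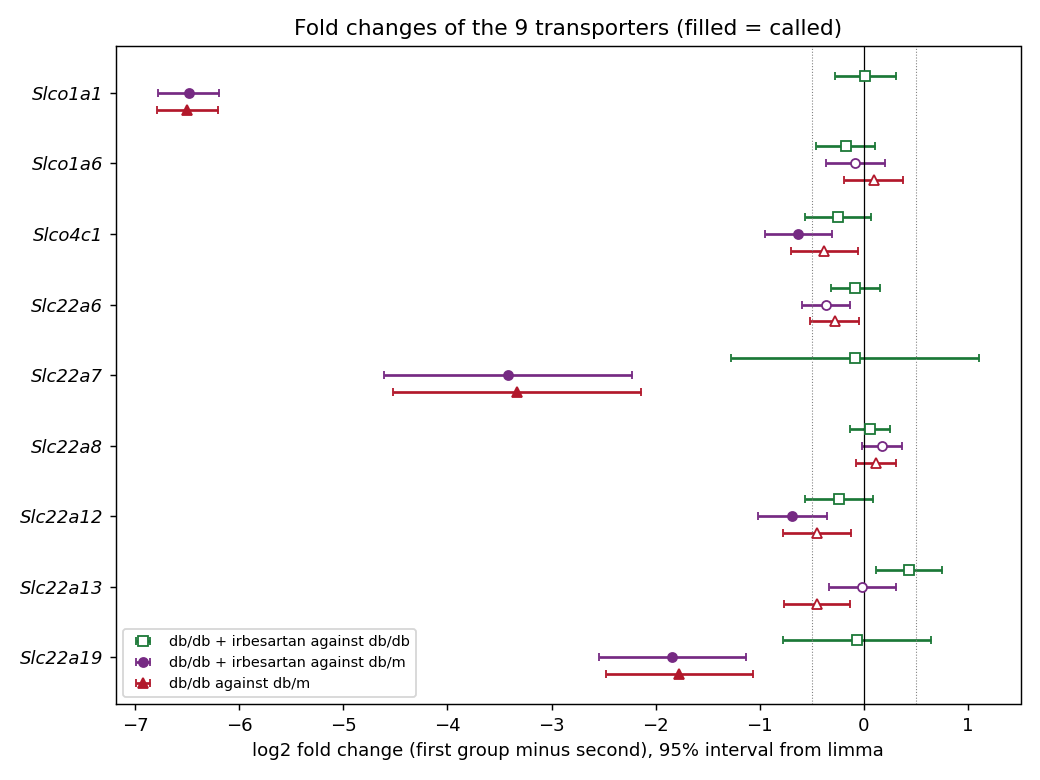
Log2 fold change (horizontal axis, first group minus second) of the 9 transporters with 95% intervals from limma, for db/db + irbesartan against db/db (squares), db/db + irbesartan against db/m (circles) and db/db against db/m (triangles), filled where called, with dotted lines at ±0.5. Of the intervals for irbesartan against untreated db/db mice, only that of Slc22a13 (0.11 to 0.75) excludes 0, and that of Slc22a7 is the widest.

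The rest of the 2 families was read whole, as the 30 other Slco and Slc22a genes on the array. In db/db against db/m mice 1 of them rose and 3 fell, so 13.3% were called, against 2.3% of all genes. Their median log2 fold change was -0.09, where that of all genes was 0.01. In treated against untreated db/db mice 0 rose and 1 fell (3.33% called, against 1.01% of all genes). In treated against db/m mice 2 rose and 3 fell (16.7% called, against 3.89% of all genes). Slc22a26, next to Slc22a19 on chromosome 19, had the second lowest fold change of all genes in db/db against db/m mice, between Slco1a1 and Slc22a7. It had 4.39, 4.56 and 4.56 in db/db + irbesartan mice, 4.60, 4.32 and 3.99 in db/db mice, and 8.38, 7.39 and 7.61 in db/m mice, with a wide empty space between the diabetic and the db/m values. This gave a log2 fold change of -3.49 in db/db against db/m mice (SE 0.23, adjusted p = 7.4e-05) and -3.29 in treated against db/m mice (adjusted p = 6.6e-05).

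Slc22a28 and Slc22a30, known to be more abundant in the kidney of male than of female mice, fell in the same comparisons. Slc22a28 had 6.57, 6.13 and 6.56 in db/db + irbesartan mice, 7.25, 7.16 and 6.72 in db/db mice, and 8.09, 8.32 and 8.23 in db/m mice, so that the 3 groups were apart from each other on every array. Its log2 fold change was -1.17 in db/db against db/m mice (SE 0.16, adjusted p = 0.0069), -1.79 in treated against db/m mice (adjusted p = 3.2e-04) and -0.62 in treated against untreated db/db mice (SE 0.16, adjusted p = 0.19). The last of these was lost in 11 of the 22 alternative analyses, among them those that left out db/db replicate 1 or 2 or any of the irbesartan replicates, where the value ranged between -0.70 and -0.48. Slc22a30 gave -1.03 in db/db against db/m mice (adjusted p = 0.015) and -1.33 in treated against db/m mice (adjusted p = 0.0026), from signals of 1.60 to 2.22 in the diabetic mice and 2.84 to 3.52 in db/m mice. The promoter windows of Slc22a28 and Slc22a30 were identical at 96.0% of their bases. Genes so alike may share probes, which were not examined here, so the split of signal between them is uncertain.

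**Figure D3:**
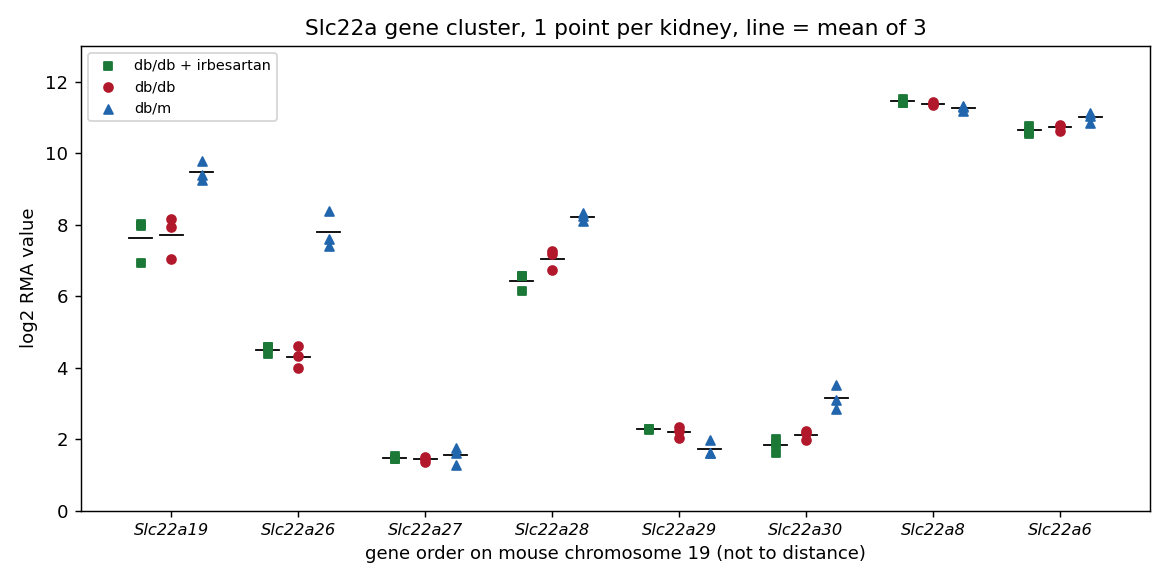
Log2 RMA value (vertical axis) of the 8 Slc22a genes that follow each other on chromosome 19, in their order along it and not to distance, for db/db + irbesartan (squares), db/db (circles) and db/m mice (triangles), with 1 point per kidney and a line at each mean of 3. The diabetic points lie below the db/m points for Slc22a19, Slc22a26, Slc22a28, Slc22a30 and Slc22a6, and above them for Slc22a29 and Slc22a8.

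Slc22a29, which lies between Slc22a28 and Slc22a30 and is known to be higher in females, had the other sign. It had 2.28, 2.26 and 2.29 in db/db + irbesartan mice, 2.33, 2.23 and 2.02 in db/db mice, and 1.62, 1.98 and 1.60 in db/m mice, all dim signals. It rose in treated against db/m mice (log2 fold change 0.55, adjusted p = 0.036), a call lost without db/m replicate 1 (0.49) or 3 (0.48). The value in db/db against db/m mice was 0.46 (adjusted p = 0.11), and it passed the limits without db/m replicate 2 (0.59) or db/db replicate 3 (0.55). Slc22a27 in the same run gave -0.10 (adjusted p = 0.78). Along this run the genes that fell were interspersed with genes that were not called, and Slc22a8 and Slc22a6 stood at the far end from Slc22a19.

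Slco4a1, a carrier of thyroid hormones and prostaglandins found in many tissues, was the only family gene that rose in db/db against db/m mice. It had 6.01, 6.29 and 5.72 in db/db + irbesartan mice, 6.14, 6.12 and 6.52 in db/db mice, and 5.05, 5.67 and 5.34 in db/m mice. This gave a log2 fold change of 0.91 in db/db against db/m mice (SE 0.18, adjusted p = 0.045) and 0.66 in treated against db/m mice (adjusted p = 0.087). On chromosome 6, Slco1a4 next to Slco1a1 gave -0.48 (adjusted p = 0.22) and Slco1a5 next to Slco1a6 gave -0.11 (adjusted p = 0.80) in db/db against db/m mice. Slco1a4, Slco1a5 and Slc22a27 were named for their places beside members after their values were seen.

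**Figure D4:**
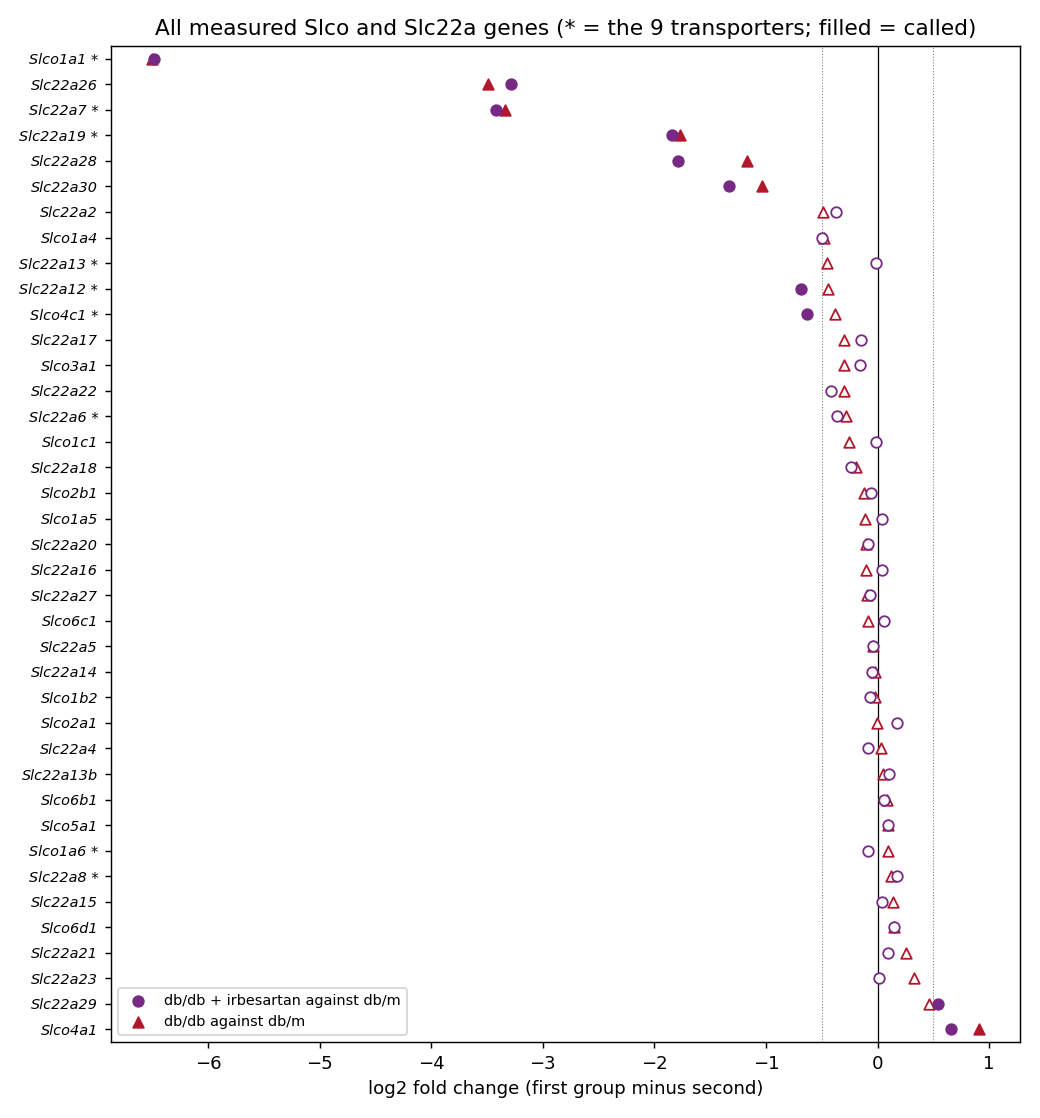
Log2 fold change (horizontal axis, first group minus second) of all 39 measured Slco and Slc22a genes, ordered by db/db against db/m, with circles for db/db + irbesartan against db/m and triangles for db/db against db/m, filled where called; the 9 transporters carry a star. The 6 genes at the top, Slco1a1, Slc22a26, Slc22a7, Slc22a19, Slc22a28 and Slc22a30, are the ones called lower in db/db against db/m mice, and Slco4a1 at the bottom rose.

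Other proteins complete the route of an organic anion through the cell. Carriers that hold up the dicarboxylate gradient, such as Slc13a3, came with 5 genes, of which 0 were called in db/db against db/m mice by limma, 1 had an unadjusted p under 0.05 and the one-way model over 3 groups called 0. In treated against db/m mice 1 of the 5 was called, where 3.89% of all genes were. The sulfate and oxalate exchanger Slc26a1 fell there (log2 fold change -0.52, adjusted p = 0.026). Of 8 carriers that let anions out of the cell, the efflux pump Abcc4 (MRP4) rose and the urate and drug exporter Slc17a3 (NPT4) fell in db/db against db/m mice. That was 25% called, against 2.3% of all genes, and the count ranged from 0 to 3 over the 22 alternative analyses. Abcc4 averaged 8.45 ± 0.31 in treated mice, 8.49 ± 0.19 in db/db mice and 7.57 ± 0.22 in db/m mice (SD, n = 3 each), a log2 fold change of 0.92 in db/db against db/m mice (adjusted p = 0.029). Slc17a3 gave -0.58 (adjusted p = 0.085). Slc17a4, another anion exporter of this family, fell in treated mice against db/db mice (-0.81, adjusted p = 0.12) and against db/m mice (-1.09, adjusted p = 0.0049). In treated against untreated db/db mice 1.01% of all genes were called. The count of 1 of the 8 carriers called there ranged from 0 to 2 over the alternatives.

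Regulators were read as 3 lists, scaffolds, transcription factors and hormone receptors. Of these 16.7%, 10% and 12.5% were called in db/db against db/m mice, against 2.3% of all genes. In treated against db/m mice 16.7%, 20% and 25% were called, against 3.89% of all genes. Each share rests on 1 or 2 called genes. Of 6 membrane scaffolds and regulators, the kinase Sgk1 rose in db/db against db/m mice (0.72, adjusted p = 0.16) and in treated against db/m mice (1.25, adjusted p = 0.011). Of 10 transcription factors known to drive tubule transporters, the xenobiotic receptor Nr1i2 rose in db/db against db/m mice (0.67, adjusted p = 0.11). In treated against db/m mice the fatty acid receptor Ppara rose (0.60, adjusted p = 0.046) and Hnf4g fell (-0.54, adjusted p = 0.15). Hnf4a, the main factor of proximal tubule identity, averaged 10.64 ± 0.03 in treated mice and 10.78 ± 0.07 in db/m mice (SD, n = 3 each), with a log2 fold change of -0.14 (adjusted p = 0.46). Of 8 hormone receptors and relays, the oestrogen receptor Esr1 fell in db/db against db/m mice (-0.89, adjusted p = 0.0074) and in treated against db/m mice (-0.78, adjusted p = 0.0081), and the thyroid hormone receptor Thra fell in treated against db/m mice (-0.53, adjusted p = 0.053).

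Further gene groups moved beside the transporters, and their part in the transporter values was not tested. Of 5 markers of the S3 segment, the last stretch of the proximal tubule, 3 fell and 1 rose in db/db against db/m mice. There 0.987% of all genes were called lower and 1.31% higher. The cystine and aspartate carrier Slc7a13 gave -1.37, the oxysterol hydroxylase Cyp7b1 -2.85 and the phospholipid flippase Atp11a -1.15, whereas the glucose carrier Slc5a1 gave 0.52 (adjusted p between 7.4e-05 and 0.074). The mean of the 5 markers per array was 7.02 to 7.15 in treated mice, 6.93 to 7.35 in db/db mice and 8.02 to 8.23 in db/m mice, and Slc22a13b was dim on every array.

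Of 12 genes known as higher in male than in female mouse kidney, 6 fell and 0 rose in db/db against db/m mice, and 7 fell and 1 rose in treated against db/m mice. For all genes the shares were 0.987% lower and 1.31% higher in the first comparison, and 1.96% and 1.93% in the second. Their median log2 fold change was -0.76 in db/db against db/m mice and -0.80 in treated against db/m mice. Kap, an androgen-induced kidney protein, gave -0.87 in db/db against db/m mice (adjusted p = 0.0069), and the cytochrome Cyp2j13 gave -1.17 (adjusted p = 0.012), both named after their values were seen. The gene that rose in treated against db/m mice was Cyp4a12b (1.19, adjusted p = 0.054). Cyp7b1 and Slc7a13 stand on this list and on that of the S3 segment, and Slc22a28 and Slc22a30 on this list and in the family above. Of 5 genes known as higher in females, 4 rose in db/db against db/m mice, Abcc3 (1.93), Cyp4a14 (0.89), Slc7a12 (0.73) and Gsta4 (0.62), and all 5 rose in treated against db/m mice, where the fifth was Slc22a29. Both lists are selections written with results of these arrays known, so genes of either kind that moved the other way may be missing from them. Slc22a7 and Slc22a19, which fell, are not among the 5. All mice were male.

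**Figure D5:**
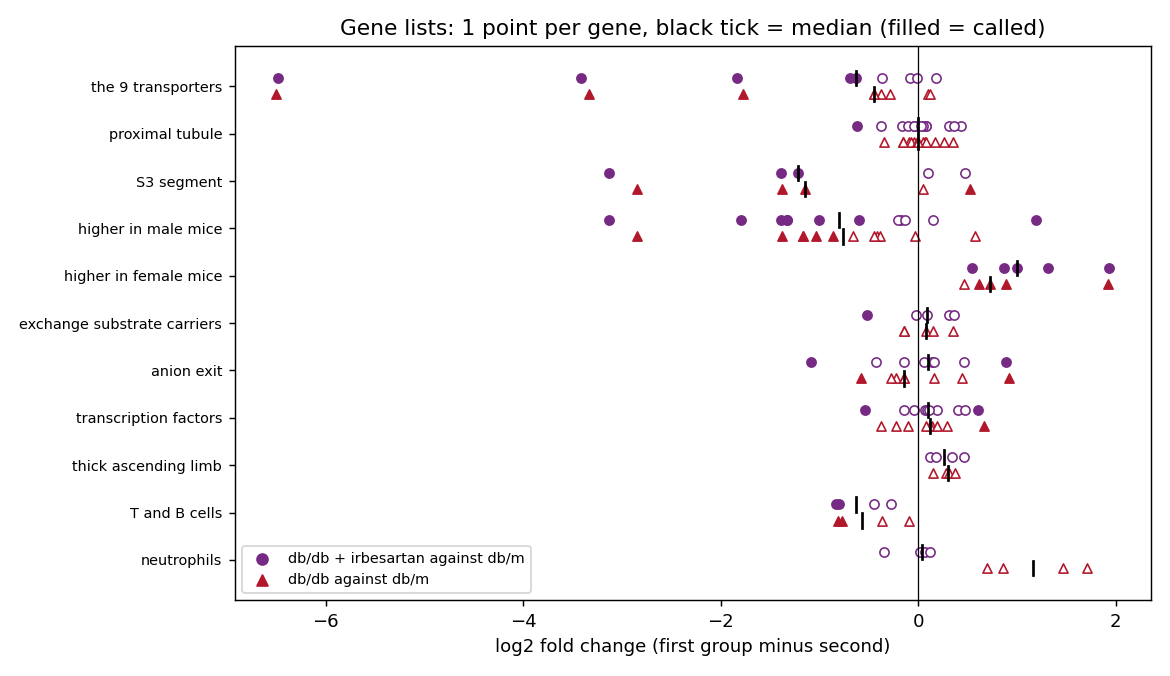
Log2 fold change (horizontal axis, first group minus second) of the 9 transporters and of 10 gene lists, with circles for db/db + irbesartan against db/m and triangles for db/db against db/m, filled where called, and a black tick at each median. The proximal tubule markers cluster around 0, the genes known as higher in male mice have medians of -0.80 and -0.76, and the neutrophil points lie to the right for db/db against db/m, where db/db replicate 3 was high.

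The genes whose values ran most like those of each transporter over the 9 arrays were taken from 7050 genes with a mean log2 value of at least 6. With groups this far apart, a correlation over the 9 arrays largely restates the group difference, and the points share 3 groups. Slco1a1 ran with Atp11a (r = 0.995), the dipeptidase Cndp2 (r = 0.984) and Cyp7b1 (r = 0.982). Slc22a7 ran with Med14 (r = 0.955), Reep5 (r = 0.948) and Crot (r = 0.947), and Slc22a19 with B4galt5 (r = 0.951), Med14 (r = 0.949) and Ncbp1 (r = 0.932), so Med14, a Mediator subunit, was met for both. Slc22a6 ran with the cholecystokinin receptor Cckar (r = 0.971), which gave -0.78 in db/db against db/m mice (adjusted p = 0.042), Gm11992 (r = 0.969) and Nisch (r = 0.967). Slc22a12 ran with Mrps7 (r = 0.988), Fbxo40 and Nisch (both r = 0.968).

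Slco1a6 ran with Gtpbp10 (r = 0.992), Cryz (r = 0.973) and the creatine carrier Slc16a12 (r = 0.965), none of which was called in db/db against db/m mice. Slc22a8 ran with the folate carrier Slc19a1 (r = 0.955), Ctsf (r = 0.953) and the glutamine carrier Slc1a5 (r = 0.949). Slco4c1 ran with Gle1 (r = 0.965), Pcdh17 (r = 0.954) and Phkb (r = 0.942), and Slc22a13 with Eif4a1 (r = 0.925), Tmem189 (r = 0.921) and Bhmt2 (r = 0.901), the lowest values of the 9.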

How the data were processed

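Kidney RNA of 9 male mice was measured on 1 whole-transcript Affymetrix mouse gene array each. RMA in Affymetrix Expression Console was the authors' step from scans to signals, and log2 values of 41345 probe sets were used as deposited. Symbols came from the array's annotation: 23521 probe sets had 1 symbol, 1820 had several and 16004 are not named here. The probe set with the highest mean stood for a gene, which gave 22180 genes. The table gives no detection call, and 3 arrays per group limit the precision. All 9 arrays were fitted with limma 3.58.1 in R 4.3.3 (1 mean per group, moderated variances, 6 residual degrees of freedom), and a call needed an absolute log2 fold change above 0.5 and a p under 0.25 after Benjamini-Hochberg adjustment over these genes, the limits of the study's methods with the fold change read as a minimum. The fit was tested on simulated data.

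The members, lists and tests were chosen with earlier results of these data known. Named by rule were the 9 members, the called family genes (at most 5 per comparison), the called partners and at most 4 others, the 3 most correlated genes of each member, and the 2 highest and 2 lowest called genes of other lists. Of the listed genes, those with no single-symbol probe set (Slc13a2, Pdzk1 and Prlr among them) were not analysed here. The alternatives changed the arrays fitted (the 6 compared, or 1 array left out in turn), the test (the methods' one-way test on 6 arrays or with all 3 groups, a trend in the variance prior, weights per array, a replicate block), the probe sets (those above the median mean of 3.39, every probe set, or their average per gene), the scaling (centring on medians, quantile normalization again) and the thresholds. Promoter windows were read from RefSeq on build GRCm38.p6, whereas the build of the array annotation is not given in the sources used here. Gene order came from the RefSeq gene table. Python 3.11.15 with pandas 2.3.3 and matplotlib 3.10.9 searched the motifs and drew the figures.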

Additional observations from a re-analysis of the deposited data

How the results depend on the processing

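Slco1a1 kept its 2 calls against db/m mice in all 22 alternatives, with log2 fold changes between -6.59 and -6.37 for db/db mice. The number of transporters called in db/db against db/m mice was 3, and it was 1 under the methods' one-way test on 6 arrays, which called 5 of all genes, and 5 with no fold change minimum. Leaving out 1 array gave 3 to 4. In treated against untreated db/db mice the count was 0, and leaving out 1 array gave 0 to 1, with Slc22a13 called without db/db replicate 3. Slc22a7 and Slc22a19 lost their call in db/db against db/m mice under the one-way test only (adjusted p = 0.45 and 0.42). Of the 30 other family genes, 4 were called in db/db against db/m mice, 0 under the one-way test on 6 arrays and 9 with no fold change minimum. In treated against untreated db/db mice the count of 1 became 0 under both one-way tests (that on 6 arrays called 0 of all genes), every probe set, the second quantile normalization, an adjusted p under 0.05 and the replicate block, and leaving out 1 array gave 0 to 1. In treated against db/m mice the count of 5 became 3 with the filter on dim probe sets and 9 with no fold change minimum.

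The replicate numbers did not pair the mice (correlations of deviations between -0.08 and 0.04), and the replicate block changed no other of these counts by over 1.5 times. Signs turned for differences near 0. Treated against untreated db/db mice gave -0.0096 for Slco1a1 with array weights, -0.039 with median centring, and -0.057 to 0.11 when 1 array was left out. Slc22a13 in treated against db/m mice gave 0.043 with array weights. Leaving out 1 array gave lowest and highest values of -0.063 and 0.22 for Slco1a6 in db/db against db/m mice, -0.24 and 0.042 for Slco1a6 in treated against db/m mice, and -0.19 and 0.079 for Slc22a13 in treated against db/m mice. In treated against untreated db/db mice they were -0.60 and 0.66 for Slc22a7, -0.40 and 0.29 for Slc22a19, and -0.0047 and 0.15 for Slc22a29. The causes were not tested.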

Other observations

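Of 8 genes of purine and uric acid handling, 0 were called in db/db against db/m mice by limma, 4 had an unadjusted p under 0.05 and the methods' one-way model over 3 groups called 0. In treated against db/m mice 1 fell, the purine nucleoside phosphorylase Pnp (log2 fold change -0.58, adjusted p = 0.015). Xdh, the enzyme that forms urate, averaged 7.38 ± 0.14 in treated mice, 7.32 ± 0.09 in db/db mice and 6.97 ± 0.13 in db/m mice (SD, n = 3 each), with an adjusted p of 0.073 between treated and db/m mice.

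Slc22a2 (OCT2), the basolateral organic cation carrier, had 10.54, 10.57 and 10.54 in treated mice, 10.46, 10.45 and 10.39 in db/db mice, and 10.85, 10.93 and 10.98 in db/m mice. The db/db mice were below the db/m mice on every array, with a log2 fold change of -0.49 (SE 0.08, adjusted p = 0.021) that just missed the minimum for a call. It was singled out after its values were seen.

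Of 4 T and B cell markers, Cd3e (-0.81) and Cd8a (-0.77) fell in db/db against db/m mice, and both fell in treated against db/m mice. The shares of all genes called lower there were 0.987% and 1.96%. The 4 markers averaged 2.95 to 3.29 per array in treated mice, 3.05 to 3.35 in db/db mice and 3.62 to 3.72 in db/m mice. The array medians lay at 3.36 to 3.45, so these signals were dim. The count of 2 in db/db against db/m mice ranged from 0 to 3 over the 22 alternatives. Of 4 markers of the thick ascending limb, 0 were called in db/db against db/m mice by limma or by the one-way model over 3 groups, 3 had an unadjusted p under 0.05, and all 4 had positive fold changes, with a median of 0.30.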
